A study of Homo sapiens with 12 samples.

Results

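The genes described here are 45 transcription factors that pattern tissues in the embryo and that are often bound by Polycomb complexes, HOX genes left out. They were taken as a list of gene symbols, by a rule that names no measured value but was written with earlier results of these data known, and all 45 were found among the 29890 genes listed for the bladder line and the 58735 listed for the kidney line. RNA-seq libraries were compared after knockdown of CBX7 with a short hairpin (shCBX7) in 5637, a human bladder carcinoma line, and in 786-O, a human clear cell renal carcinoma line. Each line had 3 shCBX7 and 3 sh control libraries, 12 in all. The cells were grown in RPMI-1640 with fetal bovine serum and the labels name no further treatment. The sources used here do not give the hairpin sequences, the vector or whether the cells were 1 clone or a pool. Nothing says that libraries of a group came from separate cultures, so p-values measure library spread alone, and that spread may be technical. Levels are in FPKM, fragments scaled by gene length and by library size.

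CBX7 is a chromobox protein of canonical Polycomb repressive complex 1. Its chromodomain binds histone H3 trimethylated on lysine 27, the mark that EZH2 in Polycomb repressive complex 2 places, and the complex compacts chromatin and carries a ubiquitin ligase for histone H2A. Developmental regulators with CG-rich promoters are classic targets: in embryonic stem cells many are held silent in this way, and each differentiated tissue keeps most of them off and a few on. The list covers the sine oculis homeobox (SIX2 and SIX4), T-box (TBX), SOX, forkhead (FOX), GATA, PITX, MSX, DLX, Iroquois (IRX), MEIS, LIM homeodomain (LHX), OTX, NKX, NR2F, EMX, EN and PAX families, with WT1 and TWIST1. Several have known places in these organs: SIX2, WT1 and LHX1 act in kidney development, and TBX18 marks mesenchyme around the developing ureter.

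CBX7 RNA was at 1.86, 1.80 and 1.97 FPKM in 5637 shCBX7, against 2.19, 2.17 and 2.42 FPKM in 5637 control, which is 83.3% of control (limma adjusted p = 0.0188). It was at 1.01, 0.892 and 1.07 FPKM in 786-O shCBX7, against 1.63, 1.75 and 1.49 FPKM in 786-O control, which is 61.0% of control (limma adjusted p = 0.00364). The groups did not overlap in either line, and some CBX7 RNA remained in every knockdown library. Depth, as reads recovered from the FPKM steps, was 17744835 to 29198095 reads for a 5637 library and 16384151 to 18868874 reads for a 786-O library. These sums cover the genes with whole reads, 93.9% of genes in 5637 and 100% in 786-O. Library totals implied by the steps were 19784641 to 32544606 in 5637 and 16503790 to 18966972 in 786-O. The labelled origins were checked on 8 urothelial and 8 renal markers. Urothelial markers summed to 1042 to 1073 FPKM in 5637 shCBX7 and 821 to 833 FPKM in 5637 control, with 6 of 8 called higher and 2 lower, and to 12.2 to 12.8 FPKM in 786-O shCBX7 and 8.36 to 9.40 FPKM in 786-O control, where KRT5 and GRHL2 were at 0 in all libraries. Renal markers summed to 468 to 505 FPKM in 786-O shCBX7 and 527 to 544 FPKM in 786-O control, with 1 of 7 tested called higher and 4 lower, and to 19.6 to 20.7 FPKM in 5637 shCBX7 and 21.0 to 21.8 FPKM in 5637 control, where PAX2 and CDH6 were below 0.1 FPKM in all libraries. Not all renal markers were absent from 5637: 3 of the 8 had at least 1 FPKM in each 5637 control library. These were CDH2, VIM and CA12, with control means of 12.25, 7.46 and 1.14 FPKM. Of the renal markers, NDUFA4L2 was at or near 0 in 786-O. Nor were all urothelial markers absent from 786-O: 2 of the 8 had at least 1 FPKM in each 786-O control library. In that line 3 urothelial markers were tested, and 2 were called higher and 0 lower with shCBX7. The markers moved between groups in both lines, and their part in the results below was not tested. Leukocyte markers summed to 1.48 to 1.73 FPKM in 5637 shCBX7 and 1.37 to 1.74 FPKM in 5637 control, and to 0.503 to 0.982 FPKM in 786-O shCBX7 and 0.636 to 1.07 FPKM in 786-O control, nearly all of it CD14, with PTPRC and CD3E at or near 0. Endothelial markers summed to 0.571 to 0.668 FPKM in 5637 shCBX7 and 0.683 to 0.713 FPKM in 5637 control, and to 0.505 to 0.656 FPKM in 786-O shCBX7 and 0.284 to 0.401 FPKM in 786-O control, with CDH5 at or near 0. Of these markers, CD14 alone passed the filter, and it was not called in either line.

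Promoter sequence was looked at first, since CG density marks the promoters that Polycomb is known to bind. RefSeq promoters (GRCh38.p14, 250 bases before to 50 after each gene's first listed start) were found for 29 of the 45 genes. They held a median of 24 CG dinucleotides per 300 bases, from 8 to 47, beside a median of 14 over all 27305 promoters of the same length, of which 95.8% held at least 1 CG. The letters TATAAA, searched on both strands, were in 0 of the 29, beside 3264 of the 27305. The 7 genes with a promoter that were off in 786-O control cells had a median of 29 CG and the 15 that were on had a median of 23, with ranges that overlap. The windows below belong to some of the genes described in the results, with each CG in capitals. FOXC1 and SOX4 moved in opposite directions in the lines, SIX2 and FOXL2 were on in 5637 and without a read in 786-O, and IRX4 was off in both and has the most CG of the 29.
FOXC1 (chr6:1609665-1609964, plus strand, 40 CG): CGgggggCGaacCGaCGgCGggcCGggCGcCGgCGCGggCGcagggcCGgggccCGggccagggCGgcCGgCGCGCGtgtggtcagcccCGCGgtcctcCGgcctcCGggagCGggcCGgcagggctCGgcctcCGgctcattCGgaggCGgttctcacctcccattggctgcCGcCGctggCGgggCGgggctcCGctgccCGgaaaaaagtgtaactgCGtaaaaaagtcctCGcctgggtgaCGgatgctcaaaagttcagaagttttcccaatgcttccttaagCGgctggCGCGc
SOX4 (chr6:21593501-21593800, plus strand, 8 CG): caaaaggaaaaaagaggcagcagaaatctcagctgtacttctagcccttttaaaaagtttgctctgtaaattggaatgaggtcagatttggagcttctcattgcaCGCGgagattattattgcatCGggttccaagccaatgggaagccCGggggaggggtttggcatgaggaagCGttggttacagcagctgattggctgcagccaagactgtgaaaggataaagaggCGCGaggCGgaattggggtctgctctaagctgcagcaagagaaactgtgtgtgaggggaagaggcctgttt
SIX2 (chr2:45009403-45009702, minus strand, 29 CG): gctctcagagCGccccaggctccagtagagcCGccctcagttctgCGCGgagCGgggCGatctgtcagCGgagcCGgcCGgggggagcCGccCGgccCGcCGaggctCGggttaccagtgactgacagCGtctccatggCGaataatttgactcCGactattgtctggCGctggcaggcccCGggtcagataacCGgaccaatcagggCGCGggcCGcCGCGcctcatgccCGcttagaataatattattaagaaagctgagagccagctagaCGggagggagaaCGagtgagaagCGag
FOXL2 (chr3:138947088-138947387, minus strand, 28 CG): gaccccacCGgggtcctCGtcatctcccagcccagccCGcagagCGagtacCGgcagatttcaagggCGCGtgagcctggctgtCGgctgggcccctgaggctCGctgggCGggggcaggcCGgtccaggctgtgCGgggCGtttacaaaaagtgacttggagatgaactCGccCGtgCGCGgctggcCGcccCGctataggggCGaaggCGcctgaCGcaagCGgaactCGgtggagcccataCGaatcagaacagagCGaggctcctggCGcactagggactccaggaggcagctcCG
IRX4 (chr5:1886896-1887195, minus strand, 47 CG): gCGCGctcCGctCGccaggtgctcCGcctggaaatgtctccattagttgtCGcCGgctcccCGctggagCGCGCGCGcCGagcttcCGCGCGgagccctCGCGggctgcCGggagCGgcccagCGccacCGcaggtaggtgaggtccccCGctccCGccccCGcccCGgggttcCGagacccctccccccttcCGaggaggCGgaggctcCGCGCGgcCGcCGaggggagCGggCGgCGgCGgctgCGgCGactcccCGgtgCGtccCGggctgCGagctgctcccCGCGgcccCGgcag
The SOX4 window has the fewest CG of the 29, and SOX4 had the highest mean level of the 45 genes in the control cells of each line. That window lies inside SOX4 as placed with the deposited values, from chr6:21592768, so it is not the region before that start. The IRX4, NR2F2 and LHX2 windows, among others, also lie inside their genes as so placed. A count of CG describes the window and says nothing of whether Polycomb is bound there.

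A gene was called on where each of the 3 control libraries of a line had at least 1 FPKM, off where each was below 0.1 FPKM, and low otherwise. In 5637, 32 of the 45 were on, 6 low and 7 off. In 786-O, 22 were on, 8 low and 15 off. The lines shared 19 genes that were on in both: SIX4, TBX2, TBX3, SOX4, SOX9, FOXC1, FOXD1, GATA2, GATA6, PITX1, MSX1, DLX1, IRX3, MEIS2, OTX1, NR2F1, NR2F2, WT1 and PAX9. They shared 5 that were off in both: TBX18, SOX11, SOX17, IRX2 and IRX4. SIX2, TBX1, SOX7, FOXL2, DLX5, LHX2, TWIST1 and EN1, 8 in all, were on in 5637 and off in 786-O, and FOXC2 alone was off in 5637 and on in 786-O. The rest were low in at least 1 line. SOX2, MSX2, DLX2, NKX2-5 and PAX6 were on in 5637 and low in 786-O, IRX5 and LHX1 were low in 5637 and on in 786-O, FOXF1 and GATA4 were low in 5637 and off in 786-O, EMX2 was off in 5637 and low in 786-O, and TBX20 and MEIS1 were low in both. The tables were normalized separately, so levels are set side by side and not tested across the lines. Near the limit for off, MSX2 reached 0.107 and EMX2 0.112 FPKM in 1 control library of 786-O each, and TBX20 reached 0.121 FPKM in 1 control library of 5637. Near the limit for on, DLX2 had 1.37, 1.43 and 0.9997 FPKM in 786-O control, so it was low by 1 library, and it was on in all 3 libraries of 786-O shCBX7. By the same limits applied to the knockdown libraries, 30 of the 32 genes on in 5637 stayed on (TBX1 and OTX1 were low). In 786-O, 18 of the 22 on stayed on (GATA2, MEIS2, OTX1 and PAX9 were low). All 7 genes off in 5637 stayed off. Of the 15 off in 786-O, 14 stayed off, and FOXF1 was low, with 0.188 FPKM in 1 library. Among the low genes, TBX20 was off after knockdown in 5637, and MSX2 and EMX2 were off after knockdown in 786-O. The same shares over all genes were not counted.

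**Figure D1:**
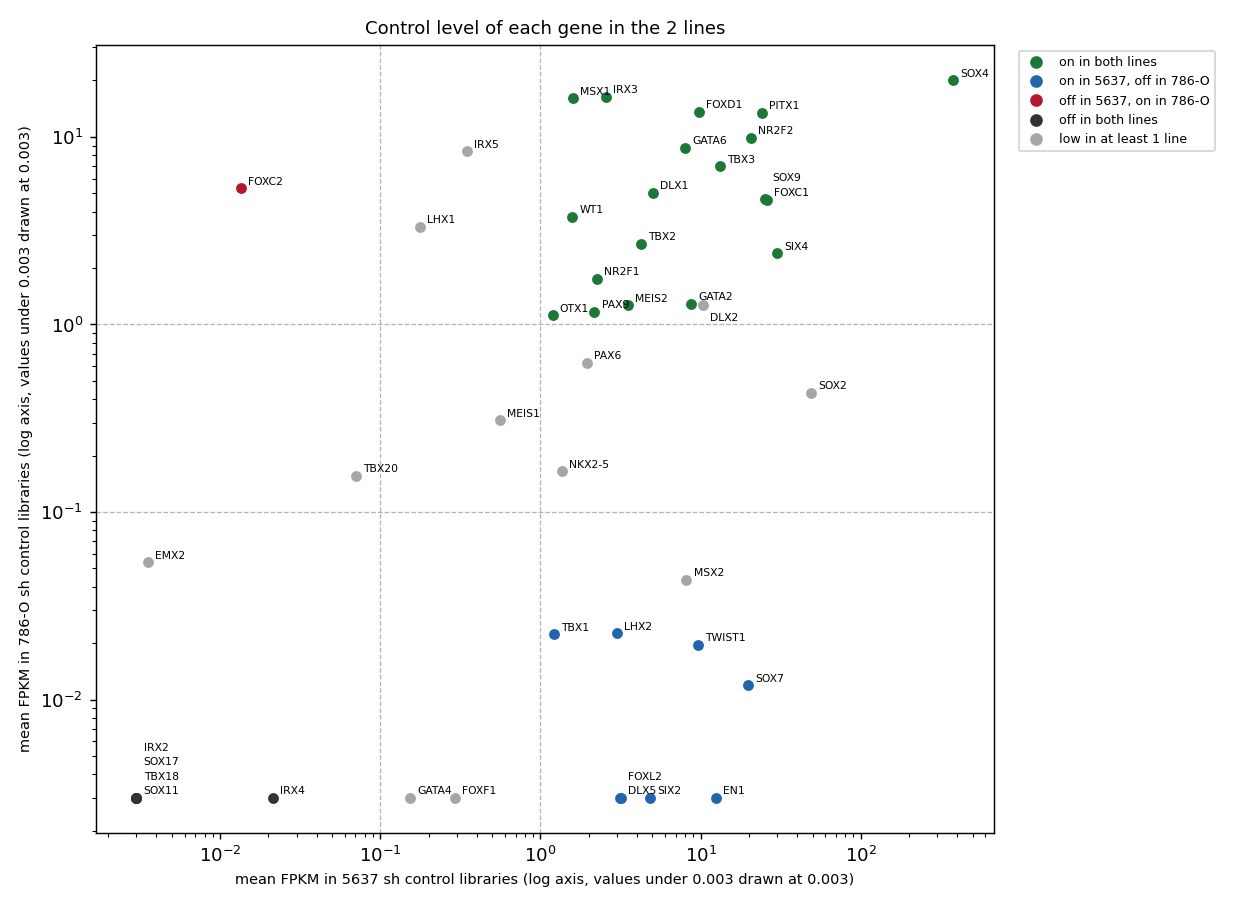
Mean FPKM of each of the 45 genes in the 3 sh control libraries of 5637 (horizontal, log axis) and of 786-O (vertical, log axis), 1 point per gene, coloured by whether the gene was on, low or off. Dashed lines mark 0.1 and 1 FPKM, and the 8 blue genes at lower right were on in 5637 and off in 786-O, with FOXC2 alone in red at upper left.

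Of the 8 genes on in 5637 and off in 786-O, TBX1 alone was low rather than on in the 5637 knockdown libraries by the same limits, and all 8 were still off in the 786-O knockdown libraries. SOX7, an endothelial and vascular SOX factor, had 20.1, 18.6 and 18.1 FPKM in 5637 shCBX7, against 20.4, 19.1 and 19.6 FPKM in 5637 control, and 0.0492, 0.0373 and 0 FPKM in 786-O shCBX7, against 0, 0.0170 and 0.0188 FPKM in 786-O control. EN1, a homeodomain factor of the midbrain and limb, had 12.01, 11.97 and 12.3 FPKM in 5637 shCBX7, against 12.4, 12.7 and 12.2 FPKM in 5637 control, and 0 reads in all 6 libraries of 786-O. The groups of 5637 overlapped for both genes. SIX2, which keeps nephron progenitors from differentiating, was silent in the line of kidney origin: it had 4.81, 4.39 and 5.20 FPKM in 5637 shCBX7, against 4.90, 4.65 and 4.87 FPKM in 5637 control, and 0 reads in all 6 libraries of 786-O. FOXL2, a forkhead factor of the ovary, had 3.85, 3.92 and 3.85 FPKM in 5637 shCBX7, against 3.36, 2.97 and 3.13 FPKM in 5637 control, and 0 reads in all 6 libraries of 786-O. Of these 4 genes, only FOXL2 was called changed in 5637.

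TWIST1, a driver of mesenchymal state, had 8.63, 8.83 and 8.48 FPKM in 5637 shCBX7, against 9.47, 9.38 and 10.0 FPKM in 5637 control; in 786-O it had 0 reads in shCBX7 and 2 in all in control, both in 1 library (0.0589 FPKM). LHX2, a LIM homeodomain factor of forebrain and hair follicle, had 2.40, 2.96 and 2.95 FPKM in 5637 shCBX7, against 2.89, 2.999 and 3.08 FPKM in 5637 control, and in 786-O it had 1 read in shCBX7 and 3 in control. DLX5, a homeodomain factor of bone and craniofacial tissue, had 2.80, 3.38 and 3.24 FPKM in 5637 shCBX7, against 3.04, 3.18 and 3.34 FPKM in 5637 control, and 1 read in shCBX7 and 0 in control in 786-O. The groups of 5637 overlapped for LHX2 and DLX5, and TWIST1 was lower in every shCBX7 library. TBX1, a T-box factor of the pharyngeal arches, was at 0.954, 0.936 and 1.03 FPKM in 5637 shCBX7, against 1.16, 1.37 and 1.13 FPKM in 5637 control, with groups that do not overlap. Its difference missed the threshold (log2 -0.17 ± 0.06 SE, limma adjusted p = 0.05), and in 786-O it had 7 reads in shCBX7 and 4 in control. GNB1L overlaps TBX1 on the other strand, at means of 1.99 and 1.77 FPKM in 5637 shCBX7 and control. In 786-O, where TBX1 was off, GNB1L had means of 5.95 and 7.95 FPKM in shCBX7 and control. The sources used here do not say whether counting used strand, so reads of such pairs cannot be told apart.

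FOXC2, a forkhead factor of lymphatic vessels and mesenchyme, showed the reverse pattern of levels. It had 8.95, 8.09 and 7.58 FPKM in 786-O shCBX7, against 5.64, 5.17 and 5.14 FPKM in 786-O control, and at most 0.0275 FPKM in any 5637 library. All 3 knockdown libraries of 786-O were above all 3 controls. IRX5, an Iroquois factor that neighbours IRX3 on chromosome 16, was at 7.38 to 7.82 FPKM in 786-O shCBX7 and 7.46 to 9.29 FPKM in 786-O control, and at 0.228 to 0.267 FPKM in 5637 shCBX7 and 0.319 to 0.392 FPKM in 5637 control. LHX1, required for nephron formation, was at 3.60 to 3.82 FPKM in 786-O shCBX7 and 3.28 to 3.35 FPKM in 786-O control, and at 0.196 to 0.312 FPKM in 5637 shCBX7 and 0.149 to 0.199 FPKM in 5637 control. LHX1 missed the threshold in 786-O although its groups did not overlap (log2 0.13 ± 0.05 SE, limma adjusted p = 0.0776). Genes on the other strand overlap some of these too. In 786-O shCBX7 and control, AC243773.1 over LHX1 had means of 1.12 and 0.568 FPKM, and AC018553.2 over IRX3 had 1.09 and 0.419 FPKM. FOXC2-AS1 over FOXC2 went the other way, with 0.868 and 1.55 FPKM. Reads of these pairs cannot be told apart either.

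**Figure D2:**
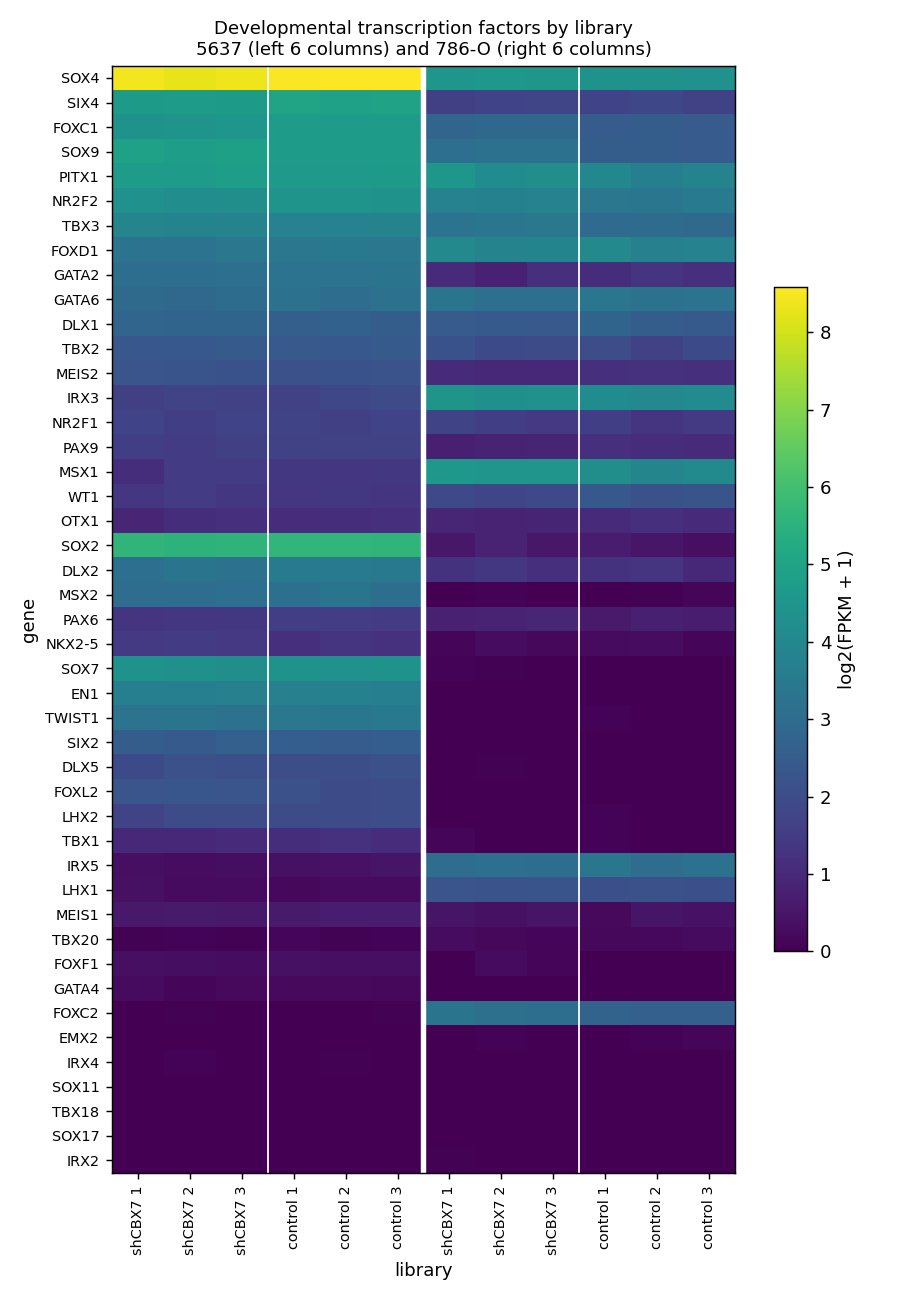
Level of the 45 genes (rows, log2(FPKM + 1) by colour) in each of the 12 libraries (columns), shCBX7 left of control within 5637 and within 786-O. The lower rows stay dark in knockdown and control libraries alike, and the SOX7 to TBX1 rows are lit in 5637 only.

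The silent genes did not rise past the test in either line. With the filter on low values lifted, limma on log2(FPKM + 1) called 0 of the 7 genes off in 5637 and 0 of the 15 off in 786-O higher with shCBX7, and 0 in either line had an unadjusted p under 0.05. A gene with no value above 0 cannot be tested, which left 6 of the 7 and 9 of the 15. Among all genes off in control cells, 1.09% of 4957 tested in 5637 and 2.64% of 8002 tested in 786-O were called higher by the same rule. In numbers this small, 0 of 6 and 0 of 9 do not stand apart from that background. A limma voom test on recovered reads called 0 of the single gene it could fit in 5637 and 1 of 4 in 786-O, FOXF1. FOXF1 had reads in the shCBX7 libraries alone, so it entered that fit only through the group where it is high. The share of all off genes that voom called higher was not counted, so 1 of 4 has no background here.

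FOXF1, a forkhead factor of visceral mesenchyme (ENSG00000103241, chr16:86510527-86515418 on GRCh38), was the member off in control cells with the most reads after knockdown. It had 1, 11 and 6 reads in the 786-O shCBX7 libraries (0.0150, 0.188 and 0.0957 FPKM), against 0, 0 and 0 reads in 786-O control. All 3 knockdown libraries were above all 3 controls, 1 of them by a single read. Pooled over the group the level was 0.0958 FPKM in shCBX7, against a limit of 0.0166 FPKM that 0 reads allow over the 3 control libraries (3 reads), so it was at least 5.78-fold higher. This bound covers counting error in the controls only and rests largely on 1 library, being 3.27-fold without shCBX7 replicate 2 and 3.73-fold without control replicate 2, leave-outs chosen after seeing the data. The difference did not pass limma without the filter (adjusted p = 0.176), whose adjusted p ranged from 0.0385 without shCBX7 replicate 1 to 0.314 without control replicate 3, and did pass voom on the reads (adjusted p = 0.0106). The knockdown level itself stayed under 1 FPKM in each library, as it did for FOXF1 in 5637, at 0.210 to 0.273 FPKM in shCBX7 and 0.276 to 0.310 FPKM in control.

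The other silent genes stayed at or near 0 reads. In 786-O, SIX2, SOX11, SOX17, FOXL2, GATA4 and EN1 had no read in any of the 6 libraries, and a count of 0 allows at most 0.0824 FPKM in a single library for SIX2, the highest such limit of the 6. TBX18, IRX2, IRX4, DLX5, SOX7, TBX1, LHX2 and TWIST1 had between 0 and 7 reads over the 3 shCBX7 libraries and between 0 and 4 over the 3 control libraries. In 5637, TBX18 had no read in any library, and SOX11, SOX17, IRX2 and EMX2 had at most 1 read per group. IRX4, a ventricular Iroquois factor, had the most there, 6 reads in shCBX7 and 5 in control, with values of 0.0180, 0.0605 and 0 FPKM in shCBX7, against 0.0161, 0.0246 and 0.0233 FPKM in control. FOXC2 in 5637, where whole reads could not be recovered, was at 0, 0.0275 and 0.0124 FPKM in shCBX7, against 0, 0.0140 and 0.0265 FPKM in control. The 0 counts set these limits on any rise and do not show that there was none.

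Of the genes with a level, 14 of 25 tested in 786-O and 19 of 33 tested in 5637 were not called. In 786-O, 25 of the 45 passed the filter (mean of at least 0.5 FPKM over the 6 libraries), and 9 were called higher and 2 lower, beside 24.7% of all 13220 tested genes called higher and 26.2% called lower. Their median log2 difference was 0.14, beside -0.01 over all tested genes. In 5637, 33 passed, and 5 were called higher and 9 lower, beside 24.4% of all 12689 tested genes called higher and 20.2% called lower. Their median log2 difference was -0.05, beside 0.01 over all tested genes. In either direction together, 44.0% of the tested genes of the list were called in 786-O and 42.4% in 5637, beside 51.0% and 44.5% of all tested genes, so the share called was near the background. In bulk RNA, fewer cells of a type and less RNA per cell cannot be told apart.

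**Figure D3:**
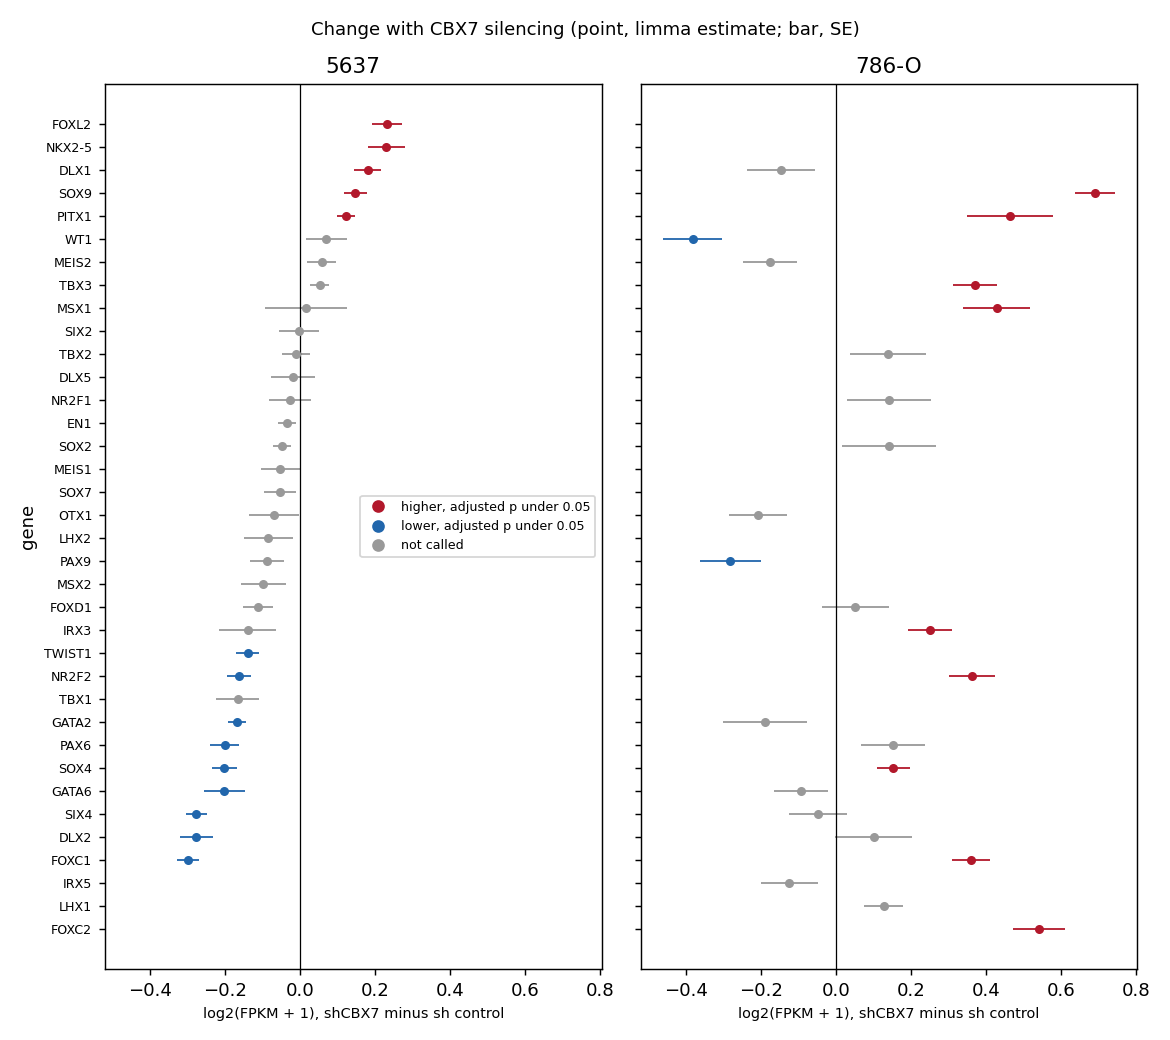
Difference in log2(FPKM + 1), shCBX7 minus sh control, for the members tested in 5637 (left) and in 786-O (right), with limma's estimate as a point and its SE as a bar. Red points were called higher and blue points lower; in 5637 the blue points lie between -0.14 and -0.30, and in 786-O SOX9 lies farthest to the right at 0.69.

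SOX9 had the largest rise in 786-O. This SOX factor of cartilage, which is also switched on in kidney tubules after injury (ENSG00000125398, chr17:72121020-72126420), had 7.72, 8.32 and 8.40 FPKM in 786-O shCBX7, against 4.72, 4.75 and 4.53 FPKM in 786-O control. The lowest knockdown library was above the highest control, and the ratio of means was 1.75 (log2 0.69 ± 0.05 SE, limma adjusted p = 4.54e-05). It rose in 5637 as well, with 28.8, 26.8 and 28.6 FPKM in shCBX7, against 25.1, 25.0 and 25.7 FPKM in control, again without overlap but by a smaller step (log2 0.15 ± 0.03 SE, limma adjusted p = 0.00735). PITX1, a homeodomain factor of the hindlimb (ENSG00000069011, chr5:135027735-135034813), was the other gene called higher in both lines. It had 22.1, 16.9 and 17.9 FPKM in 786-O shCBX7, against 15.1, 11.9 and 13.3 FPKM in 786-O control (log2 0.46 ± 0.11 SE, limma adjusted p = 0.0111). In 5637 it had 25.9, 26.1 and 27.0 FPKM in shCBX7, against 24.0, 23.7 and 24.6 FPKM in control (log2 0.12 ± 0.02 SE, limma adjusted p = 0.00649). The groups of PITX1 did not overlap in either line, and its first replicate was the highest of its group in 786-O, in shCBX7 and in control.

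FOXC1, NR2F2 and SOX4 were called lower in 5637 and higher in 786-O. The share of all genes called in opposite directions was not counted, so these calls have no background of their own. In either direction, 44.5% of all tested genes were called in 5637 and 51.0% in 786-O. FOXC1, a forkhead factor of the eye, vessels and kidney mesenchyme (ENSG00000054598, chr6:1609972-1613897), had 19.98, 20.9 and 21.6 FPKM in 5637 shCBX7, against 25.9, 26.0 and 25.6 FPKM in 5637 control (log2 -0.30 ± 0.03 SE, limma adjusted p = 0.000359). In 786-O it had 6.003, 6.23 and 6.42 FPKM in shCBX7, against 4.61, 4.75 and 4.51 FPKM in control (log2 0.36 ± 0.05 SE, limma adjusted p = 0.000876). All knockdown libraries lay below all controls in 5637 and above them in 786-O. NR2F2, the nuclear receptor COUP-TFII of veins and mesenchyme (ENSG00000185551, chr15:96325938-96340263), had 19.1, 17.4 and 18.1 FPKM in 5637 shCBX7, against 20.6, 20.5 and 20.3 FPKM in 5637 control (log2 -0.16 ± 0.03 SE, limma adjusted p = 0.00621). It had 13.0, 12.8 and 13.1 FPKM in 786-O shCBX7, against 9.61, 9.27 and 10.8 FPKM in 786-O control (log2 0.36 ± 0.06 SE, limma adjusted p = 0.00201). SOX4, a SOX factor widely raised in carcinomas (ENSG00000124766, chr6:21592768-21598619), was the most abundant of the 45 in 5637, with 342, 314 and 331 FPKM in shCBX7, against 372, 380 and 383 FPKM in control (log2 -0.20 ± 0.03 SE, limma adjusted p = 0.00286). In 786-O it had 22.1, 22.8 and 22.2 FPKM in shCBX7, against 20.1, 20.4 and 19.4 FPKM in control, a small step (log2 0.15 ± 0.04 SE, limma adjusted p = 0.0205) that did not pass without shCBX7 replicate 2 (adjusted p = 0.0784), shCBX7 replicate 3 (0.0534) or control replicate 3 (0.0868). The groups of NR2F2 and SOX4 did not overlap in either line.

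**Figure D4:**
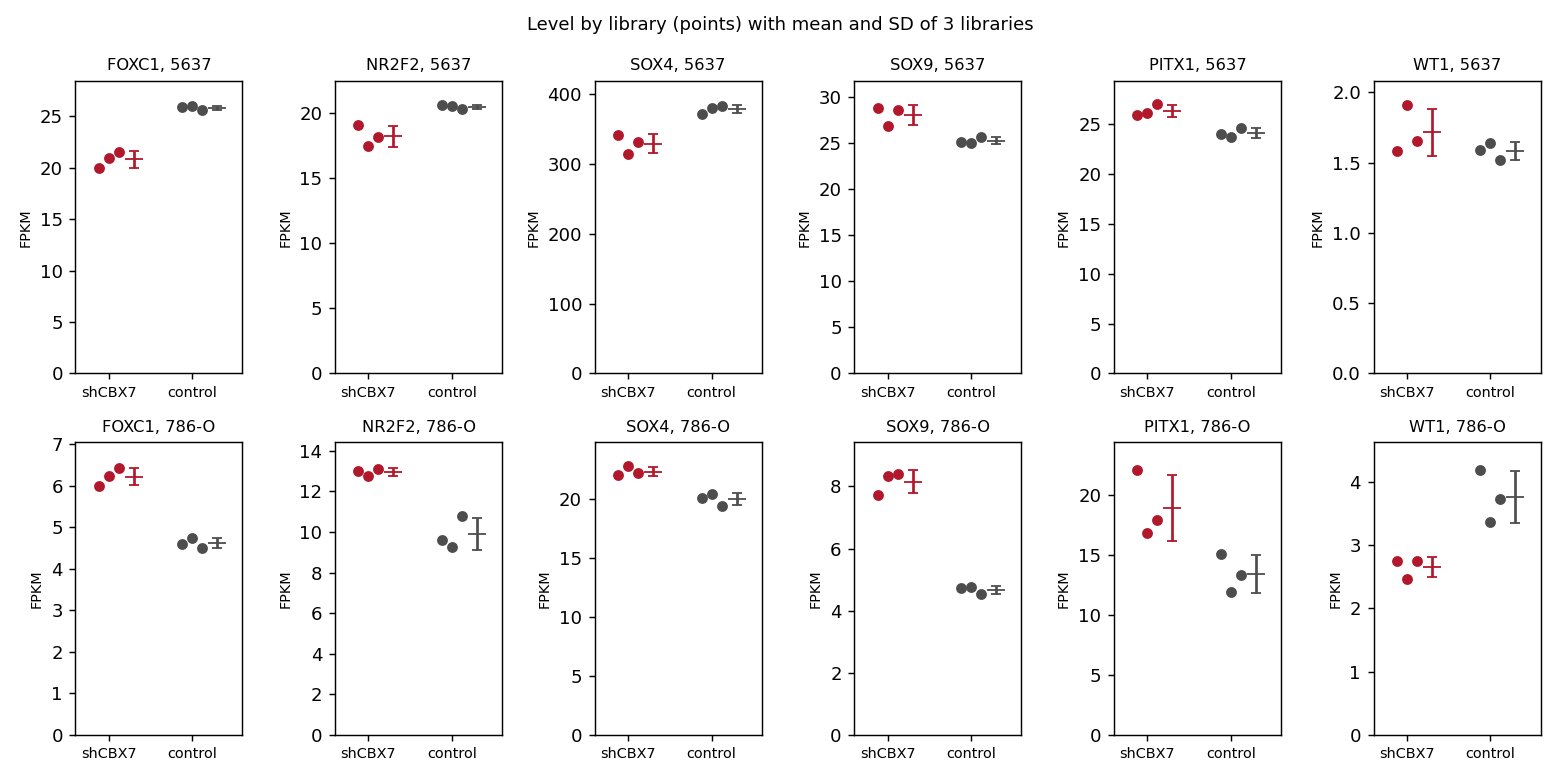
FPKM by library (points), with mean and SD of 3 libraries, for FOXC1, NR2F2, SOX4, SOX9, PITX1 and WT1 in 5637 (upper row) and 786-O (lower row), each panel on its own axis from 0. FOXC1, NR2F2 and SOX4 are lower in shCBX7 than in control in 5637 and higher in 786-O.

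The further genes called higher in 786-O were FOXC2, TBX3, MSX1 and IRX3. FOXC2, whose values are given above, rose by log2 0.54 ± 0.07 SE (ratio of means 1.54, limma adjusted p = 0.000511). TBX3, a T-box repressor of limb and mammary bud, had 8.70, 9.40 and 9.89 FPKM in 786-O shCBX7, against 6.95, 7.21 and 6.78 FPKM in 786-O control (log2 0.37 ± 0.06 SE, limma adjusted p = 0.00146). Both were higher in every knockdown library than in any control. MSX1, a homeodomain factor of limb and tooth, had 22.8, 21.3 and 21.4 FPKM in 786-O shCBX7, against 18.0, 13.8 and 16.3 FPKM in 786-O control (log2 0.43 ± 0.09 SE, limma adjusted p = 0.00538). IRX3, an Iroquois factor expressed in developing nephron tubules, had 20.9, 18.9 and 19.2 FPKM in 786-O shCBX7, against 17.1, 15.4 and 16.7 FPKM in 786-O control (log2 0.25 ± 0.06 SE, limma adjusted p = 0.00963). Groups did not overlap for either gene. In 5637, TBX3, MSX1 and IRX3 were at 13.4 to 14.2, 1.17 to 1.90 and 2.10 to 2.37 FPKM in shCBX7 and at 13.1 to 13.4, 1.57 to 1.61 and 2.18 to 2.90 FPKM in control, and none of the 3 was called.

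WT1 and PAX9 were the genes of the list called lower in 786-O. WT1, a zinc finger factor of kidney progenitors and podocytes (ENSG00000184937, chr11:32387775-32435630), had 2.74, 2.46 and 2.74 FPKM in 786-O shCBX7, against 4.20, 3.37 and 3.73 FPKM in 786-O control (log2 -0.38 ± 0.08 SE, limma adjusted p = 0.00511). PAX9, a paired-box factor of the pharyngeal pouches and teeth, had 0.673, 0.815 and 0.855 FPKM in 786-O shCBX7, against 1.27, 1.16 and 1.06 FPKM in 786-O control (log2 -0.28 ± 0.08 SE, limma adjusted p = 0.0226). Every knockdown library was below every control for both genes. PAX9 did not pass in 5 of 13 alternatives, among them those without shCBX7 replicate 1 (adjusted p = 0.0751), control replicate 1 (0.0636) and control replicate 2 (0.055). In 5637 WT1 was at 1.58 to 1.91 FPKM in shCBX7 and 1.52 to 1.64 FPKM in control, and PAX9 at 1.83 to 2.11 FPKM in shCBX7 and 2.15 to 2.19 FPKM in control, neither of them called.

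The falls of 5637 were found in several families. SIX4, a sine oculis homeobox factor of muscle and kidney, had 24.5, 25.0 and 24.3 FPKM in 5637 shCBX7, against 31.1, 28.9 and 30.0 FPKM in 5637 control (log2 -0.28 ± 0.03 SE, limma adjusted p = 0.000449). GATA2, a zinc finger factor of blood and the urogenital tract, had 7.66, 7.59 and 7.70 FPKM in 5637 shCBX7, against 8.59, 8.66 and 8.90 FPKM in 5637 control (log2 -0.17 ± 0.02 SE, limma adjusted p = 0.00158). GATA6, a zinc finger factor of endoderm and heart, had 6.84, 6.55 and 7.15 FPKM in 5637 shCBX7, against 8.30, 7.34 and 8.47 FPKM in 5637 control (log2 -0.20 ± 0.05 SE, limma adjusted p = 0.0202). The groups of these 3 genes did not overlap, but GATA6 did not pass without shCBX7 replicate 2 (adjusted p = 0.0652), control replicate 1 (0.0634) or control replicate 3 (0.0635). TWIST1 was lower by the values given above (log2 -0.14 ± 0.03 SE, limma adjusted p = 0.0103). PAX6, the paired-box factor of eye and pancreas, had 1.51, 1.54 and 1.62 FPKM in 5637 shCBX7, against 1.95, 1.96 and 1.90 FPKM in 5637 control (log2 -0.20 ± 0.04 SE, limma adjusted p = 0.00557). ELP4 overlaps PAX6 on the other strand, at 0.717 and 0.735 FPKM in 5637 shCBX7 and control. In 786-O, SIX4, GATA2, GATA6 and PAX6 were not called, with log2 differences of -0.05, -0.19, -0.09 and 0.15. PAX6, low in 786-O, had 0.740, 0.764 and 0.914 FPKM in shCBX7, against 0.553, 0.705 and 0.614 FPKM in control. Its groups did not overlap there, and limma voom on recovered reads called it higher (adjusted p = 0.0132).

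The remaining rises of 5637 were in homeodomain and forkhead genes of low level. NKX2-5, a homeodomain factor of the heart, had 1.74, 1.87 and 1.67 FPKM in 5637 shCBX7, against 1.28, 1.46 and 1.33 FPKM in 5637 control (log2 0.23 ± 0.05 SE, limma adjusted p = 0.00872). FOXL2 rose by the values given above (log2 0.23 ± 0.04 SE, limma adjusted p = 0.00389). The distal-less genes DLX1 and DLX2, homeodomain factors of forebrain interneurons and jaw that lie 9.8 kb apart on chromosome 2, moved in opposite directions in 5637. DLX1 had 5.92, 5.80 and 5.82 FPKM in 5637 shCBX7, against 5.03, 5.29 and 4.81 FPKM in 5637 control (log2 0.18 ± 0.03 SE, limma adjusted p = 0.00572). DLX2 had 7.79, 8.77 and 8.53 FPKM in 5637 shCBX7, against 10.3, 10.7 and 10.0 FPKM in 5637 control (log2 -0.28 ± 0.04 SE, limma adjusted p = 0.00256). Groups did not overlap for any of these 4 genes. In 786-O neither DLX gene was called, with log2 differences of -0.15 for DLX1 and 0.10 for DLX2.

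The difference between lines was tested directly, as the interaction term over all 12 libraries (786-O effect minus 5637 effect). It could be tested for 35 of the 45 genes, and 12 had a higher effect in 786-O and 5 a lower one, 17 in all, beside 24.3% higher, 29.0% lower and 53.3% either way over all 12777 genes tested. The smallest p belonged to FOXC1 (log2 0.66 ± 0.05 SE, limma adjusted p = 9.42e-07), SOX9 (0.54 ± 0.06 SE, 9.2e-06), NR2F2 (0.53 ± 0.07 SE, 5.95e-05) and SOX4 (0.36 ± 0.05 SE, 9.07e-05). For genes that passed the filter in both lines, the share called over all such genes was not counted. Among the 22 genes of the list that did, 11 had a higher effect in 786-O and 3 a lower one, with no matching background. The other 3 called entered through 1 line: FOXC2 had log2 0.54 ± 0.08 SE, but it was off in 5637, where no effect can be measured. The same holds the other way for FOXL2 (-0.23), which had no read in 786-O, and in part for NKX2-5 (-0.25), at 0.0755 to 0.229 FPKM in 786-O shCBX7 and 0.0868 to 0.208 FPKM in 786-O control. WT1 had the lowest difference (log2 -0.45 ± 0.09 SE, limma adjusted p = 0.0016).

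The genes tested in both lines and called in neither were TBX2, SOX2, FOXD1, MEIS2, OTX1 and NR2F1. SOX2, the pluripotency and neural SOX factor, was on only in 5637 of the lines, at 45.9 to 48.5 FPKM in shCBX7 and 48.5 to 49.2 FPKM in control, and at 0.469 to 0.788 FPKM in 786-O shCBX7 and 0.265 to 0.596 FPKM in 786-O control. FOXD1, a forkhead factor of kidney stroma, was at 13.4 to 15.4 FPKM in 786-O shCBX7 and 12.4 to 15.5 FPKM in 786-O control, and at 8.58 to 9.48 FPKM in 5637 shCBX7 and 9.51 to 10.1 FPKM in 5637 control. Groups overlapped for FOXD1 in 786-O and did not in 5637. The p of these genes missed the threshold, which does not show that they were equal. A further 8 genes were tested in 5637 alone and not called (DLX5, EN1, LHX2, MEIS1, MSX2, SIX2, SOX7 and TBX1), and IRX5 and LHX1 were tested in 786-O alone and not called. Levels in 5637 were 7.37 to 7.77 FPKM in shCBX7 and 7.55 to 9.04 FPKM in control for MSX2, and 0.492 to 0.527 FPKM in shCBX7 and 0.536 to 0.592 FPKM in control for MEIS1. TBX2, MEIS2, OTX1 and NR2F1 lay between 0.757 and 4.40 FPKM in the knockdown libraries of the lines and between 1.05 and 4.39 FPKM in the controls. In 786-O, MEIS2 and OTX1 were lower in every shCBX7 library than in any control. Both were called lower there by limma with quantile normalization (adjusted p = 0.0468 and 0.032) and without the trend (0.0319 and 0.0231). Voom on recovered reads also called MEIS2 lower (adjusted p = 0.0226). Below the filter, MEIS1 was at 0.313 to 0.386 FPKM in 786-O shCBX7 and 0.170 to 0.404 FPKM in 786-O control, and EMX2 and MSX2 stayed at or below 0.112 FPKM in all 786-O libraries. TBX20 and GATA4 stayed under 0.3 FPKM in every library of both lines.

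Several of the genes are neighbours. FOXF1 and FOXC2 lie 51.4 kb apart on chromosome 16, with the forkhead gene FOXL1 beyond FOXC2. FOXL1 had means of 10.8 ± 0.466 FPKM in 786-O shCBX7 and 8.80 ± 0.255 FPKM in 786-O control (SD, n = 3 each; limma adjusted p = 0.00387), and 13.1 ± 0.273 FPKM in 5637 shCBX7 and 11.2 ± 0.323 FPKM in 5637 control (limma adjusted p = 0.00119). So in 5637 FOXL1 was on and called higher beside a FOXC2 that was off. IRX3 and IRX5, 644.1 kb apart, were both on in 786-O, and IRX3 alone was called. WT1 and PAX6 lie 569.7 kb apart on chromosome 11 and neither was called in the line where the other one was. Antisense and divergent partners were looked at because strand use is unknown. GATA6-AS1 had means of 1.595 ± 0.221 FPKM in 5637 shCBX7 and 2.34 ± 0.144 FPKM in 5637 control (SD, n = 3 each; log2 -0.37, limma adjusted p = 0.00464), the same direction as GATA6. LHX1-DT had 6.90 ± 0.578 FPKM in 786-O shCBX7 and 4.49 ± 0.199 FPKM in 786-O control (SD, n = 3 each; log2 0.52, limma adjusted p = 0.000536), and NR2F1-AS1 had 0.769 ± 0.0378 FPKM in 786-O shCBX7 and 0.466 ± 0.0600 FPKM in 786-O control (SD, n = 3 each; log2 0.27, limma adjusted p = 0.0243). TBX2-AS1 was more abundant than TBX2 in both lines, at 6.99 ± 0.827 FPKM in 5637 shCBX7 and 7.97 ± 0.179 FPKM in 5637 control (SD, n = 3 each), and was not called in either.

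Other developmental regulators were counted beside them. Of 183 other developmental transcription factors, 45 passed the filter in 786-O and 10 were called higher and 8 lower, with a median log2 difference of -0.0018. That is 40.0% called, beside 51.0% of all tested genes. In 5637, 63 passed and 9 were called higher and 17 lower, with a median of -0.02. There 41.3% were called, beside 44.5% of all tested genes, so neither share stood above the background. The genes named next are among those called. SP8, a zinc finger factor of limb outgrowth, had means of 1.45 ± 0.0416 FPKM in 786-O shCBX7 and 0.595 ± 0.0860 FPKM in 786-O control (SD, n = 3 each; log2 0.62, limma adjusted p = 0.000426). PAX8, the paired-box factor that defines renal epithelium, had 30.3 ± 0.396 FPKM in 786-O shCBX7 and 37.8 ± 1.54 FPKM in 786-O control (SD, n = 3 each; log2 -0.31, limma adjusted p = 0.00104). RUNX2, a factor of bone, had 13.7 ± 0.342 FPKM in 5637 shCBX7 and 17.3 ± 0.361 FPKM in 5637 control (SD, n = 3 each; log2 -0.32, limma adjusted p = 0.0002).

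Subunits of the Polycomb complexes were counted too. Of 36 listed, 33 were tested in 786-O with 11 called higher and 9 lower (60.6%, beside 51.0% of all tested genes), and 32 in 5637 with 9 called higher and 12 lower (65.6%, beside 44.5% of all tested genes). EZH2, the methyltransferase of Polycomb repressive complex 2, had 29.5, 31.2 and 30.2 FPKM in 5637 shCBX7, against 40.2, 38.9 and 39.6 FPKM in 5637 control (log2 -0.37 ± 0.03 SE, limma adjusted p = 0.000109). In 786-O it had 9.49, 9.22 and 9.05 FPKM in shCBX7, against 9.26, 10.8 and 10.9 FPKM in control, and was not called (limma adjusted p = 0.124). EZH1, its paralogue, had means of 12.6 ± 0.0845 FPKM in 5637 shCBX7 and 15.9 ± 0.124 FPKM in 5637 control (SD, n = 3 each; log2 -0.31, limma adjusted p = 7.97e-05). L3MBTL2, a subunit of a variant Polycomb repressive complex 1, had 1.96 ± 0.0564 FPKM in 786-O shCBX7 and 4.83 ± 0.303 FPKM in 786-O control (SD, n = 3 each; log2 -0.98, limma adjusted p = 1.79e-05), and CBX6, a chromobox paralogue of CBX7, had 9.15 ± 0.276 FPKM in 786-O shCBX7 and 13.2 ± 0.309 FPKM in 786-O control (SD, n = 3 each; log2 -0.49, limma adjusted p = 0.00013). These changes stand beside those of the developmental factors, and their part in them was not tested.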

How the data were processed

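Each line has its own table, in which the authors deposited FPKM, per the file headers. Column-purified total RNA went into a directional library kit, per the labels' protocols. The sources used here name no aligner or counter and no use of strand. The submitters' processing notes name mm10, although the samples are human; all 45 genes have the position of GENCODE release 29 (GRCh38) in the deposited 786-O table, and coordinates follow it. The 5637 table holds symbols alone. Table columns call the knockdown "si". Titles of a pair of 5637 control samples carry another line number, while their cell line label is 5637. The 5637 control columns could be tied to the group and not to single samples. No pair of libraries held identical values (0 of 30 pairs), and 0 sample columns were left unused.

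FPKM are not counts. Values were taken as log2(FPKM + 1), a scale that understates changes of low genes, and genes averaging 0.5 FPKM or more over the 6 libraries were tested with limma 3.58.1 in R 4.3.3 (lmFit, eBayes with a trend), with Benjamini-Hochberg adjustment over all tested genes and calls under 0.05. Off genes were tested without the filter. Whole reads were recovered from FPKM steps (tolerance 0.01) for 100% of genes in 786-O and for 39 of the 45 genes in 5637, and served for depth, floors of 3 reads and limma voom as an alternative. Intervals and floors cover counting error only. Values per library are given for genes called in either line, on in 1 line and off in the other, or off with at least 10 reads in some library, and for some others by range. FOXL1, TBX2-AS1 and genes that overlap members were named after their values were seen. Some single markers are not reported here. The genes and lists were chosen with earlier results of these data known.

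In 786-O, libraries with the same replicate number deviated together only weakly (r from 0.057 to 0.0833), so the numbers were not taken to pair them. Alternatives were a pseudocount of 0.1, no filter, quantile normalization, median centring, no trend, voom, other limits for on (0.5 FPKM) and off (0.3 FPKM), each library left out and the replicate block.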

Additional observations from a re-analysis of the deposited data

Results flagged for a closer look

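The effect of shCBX7 differed between the lines for 17 of the 35 genes tested, by the limma interaction term (786-O effect minus 5637 effect, adjusted p under 0.05). In 12 of them the log2 effect was higher in 786-O: 0.66 for FOXC1, 0.54 for SOX9, 0.54 for FOXC2, 0.53 for NR2F2, 0.41 for MSX1, 0.39 for IRX3, 0.38 for DLX2, 0.36 for SOX4, 0.35 for PAX6, 0.34 for PITX1, 0.32 for TBX3 and 0.23 for SIX4. In 5 it was lower: -0.45 for WT1, -0.33 for DLX1, -0.25 for NKX2-5, -0.23 for MEIS2 and -0.23 for FOXL2. Among all 12777 genes tested, 53.3% differed by this test. FOXC2 was off in 5637, FOXL2 had no read in 786-O and NKX2-5 was low there, so these 3 entered through the line where they are high and their difference is in effect that line's own change; 14 of the 17 passed the filter in both lines. DLX1, DLX2, MEIS2, PAX6 and SIX4 differed although none of them was called in 786-O on its own by the main test. By that test MEIS2 was not called in either line alone (log2 -0.18 in 786-O and 0.06 in 5637).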

How the results depend on the processing

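No call reversed its direction under any alternative run. Under every alternative run for it, the call stood for 13 of 14 genes called in 5637, 9 of 11 in 786-O and 12 of 17 that differed between lines. GATA6 in 5637 and SOX4 and PAX9 in 786-O each lost the call under some, with values given in the report or here; without the filter the adjusted p was 0.0547 for GATA6 and 0.0616 for PAX9. For the difference between lines, SIX4 lost it in 7 of 17 alternatives, FOXL2 in 1, PITX1 in 10, MSX1 in 11 and NKX2-5 in 9, with adjusted p reaching 0.0931, 0.0779, 0.089, 0.109 and 0.253. The cause was not tested.

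The count of genes lower in 786-O, 2 as reported, was 1 without the filter, 4 with quantile normalization, 4 without the trend, 1 with the replicate block and 1 to 2 with a library left out. MEIS2 and OTX1 were the genes gained with quantile normalization and without the trend. The replicate block took away PAX9 (adjusted p = 0.0522) and no other call in 786-O, and each library correlated best with its own number, a hint from the data and not from the design. No paired analysis was possible in 5637 because its control columns carry no number tied to the labels. Taking off as below 0.3 FPKM left 3 low genes in 5637 and 4 in 786-O, and leaving out a control library gave 5 to 8 low genes in 786-O. The count of off genes higher in 786-O, 0 as reported, was 1 with voom on recovered reads and 0 to 1 with a library left out, in each case FOXF1; it was 1 without shCBX7 replicate 1, with the adjusted p of 0.0385 given above. Leave-one-out fits that leave 2 libraries in a group still pool the spread. TBX1 in 5637, with an adjusted p of 0.05 as reported, reached 0.0295 without the trend. With FPKM alone, precision for genes of a few reads is set by depth.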
